A study of Mus musculus with 6 samples.

Results

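The proteasome transcripts described here are the 47 genes whose single annotated symbol begins with Psma, Psmb, Psmc, Psmd, Psme, Psmf or Psmg, without the 3 immunoproteasome subunits Psmb8, Psmb9 and Psmb10. Each gene was read by 1 probe set, the one with the highest mean over all arrays, out of 53 probe sets that carried such a symbol, and the 47 stood among 19938 genes measured by a probe set with 1 symbol. The series compared whole hearts of Ppif-/- mice with those of wild-type (WT) mice on Affymetrix Gene 1.0 ST arrays, 3 hearts per genotype and 1 array per heart. All mice were 8 weeks old and untreated as far as the labels say, and both groups are labelled C57BL/6. The Ppif-/- mice are global knockouts for cyclophilin D, derived on Sv129 and backcrossed to C57BL/6, and whether the WT mice were littermates is not stated in the labels. The stated purpose was to find transcripts that differ before the heart muscle fails. Values are log2 expression, on which a difference of 1 is a doubling.

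The proteasome is the main protease of the cytosol and nucleus for proteins tagged with ubiquitin. Its barrel-shaped core particle holds rings of alpha and beta subunits, with the proteolytic sites facing the inner chamber, and a regulatory particle at the barrel's end binds, unfolds and feeds in the substrate. Dedicated chaperones assemble both particles, and other activators can cap the core in place of the regulatory particle. In cardiac muscle it turns over sarcomeric and signalling proteins, and the transcription factor NFE2L1 raises transcription of its subunits when proteolysis is impaired.

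Differences between the genotypes were small for most members, and none passed the main test. In limma, 0 of the 47 genes passed an adjusted p of 0.05, a threshold that 1.09% of all 23410 probe sets tested passed (0.624% higher and 0.461% lower in Ppif-/- hearts). At an unadjusted p under 0.05 there was 1 member, the activator Psme4, against 12.9% of all probe sets tested (6.1% higher and 6.81% lower). A limma fit with a variance trend called Psme4 as well (adjusted p = 0.0297). The median difference over the members was -0.04 and that over all probe sets tested was -0.0023. Of the members, 28 lay below 0 (59.6%) and 19 above, and 50.8% of all probe sets tested lay below 0. A difference under 0.1 in size was found for 36 members, 10 lay between 0.1 and 0.2, and Psme4 was the 1 above 0.2. The median size was 0.07 over the members, 0.08 over all probe sets tested and 0.07 over the 4088 probe sets with a mean of 9 or more.

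A p-value above the threshold does not show equal levels, so the 95% intervals of the differences are given as well. For 36 of the 47 members the interval lay wholly within 0.3 of 0, that is, within a 1.23-fold change in either direction, as it did for 49.6% of all probe sets tested. Most members were brighter than the median probe set, and among the 4088 probe sets with a mean of 9 or more it did so for 2688. For the 10 other members besides Psme4 the interval reached at most 0.45 from 0, the bound of the lid subunit Psmd11. The limit of 0.3 was chosen after the values were seen. With limits of 0.2 and 0.4 the counts were 8 and 43.

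**Figure D1:**
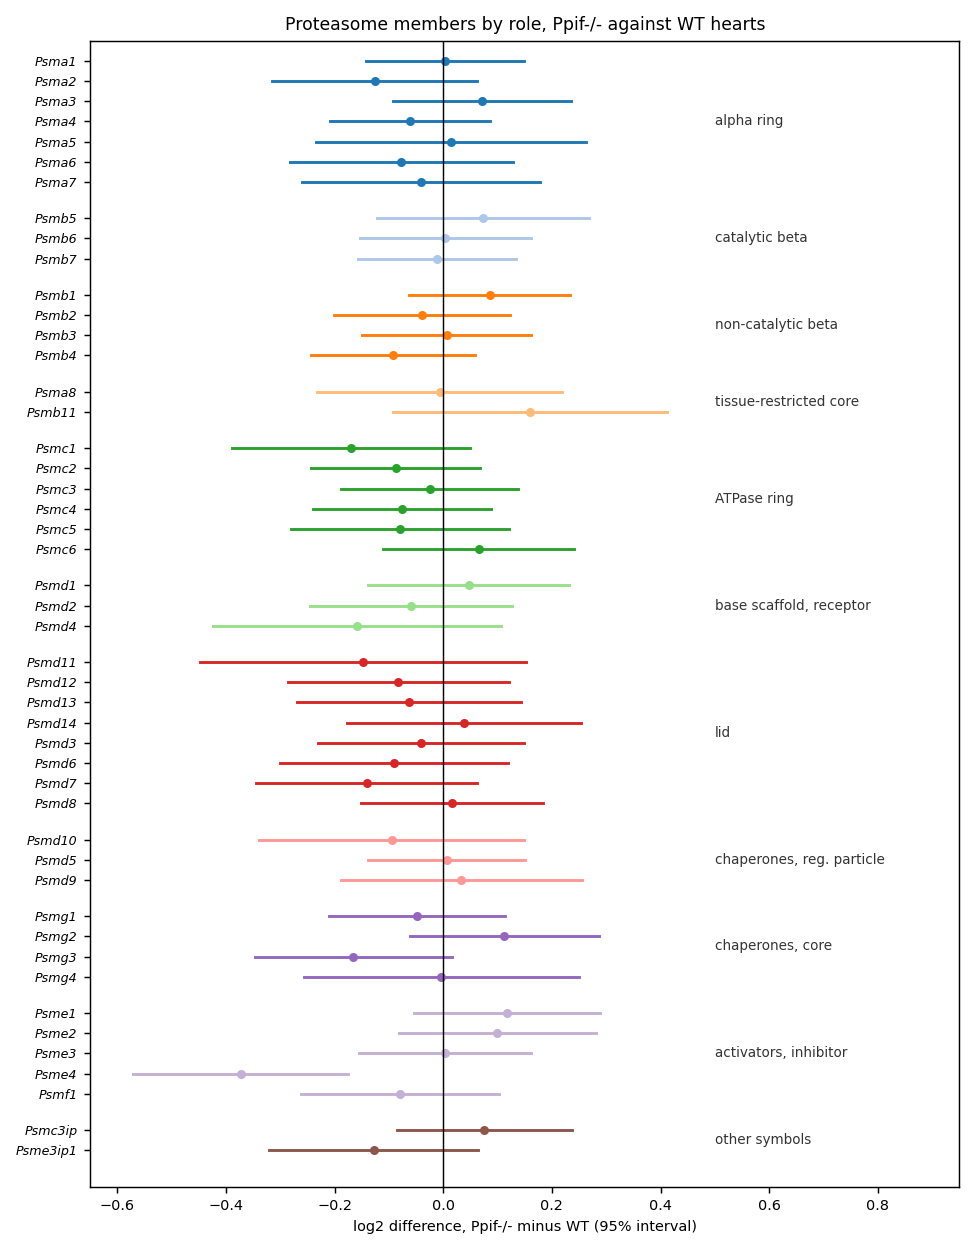
Log2 difference between Ppif-/- and WT hearts (x axis, points) with its 95% interval (lines) for the 47 members, grouped by role (y axis). The interval of Psme4 alone excludes 0, from -0.57 to -0.17, and 36 of 47 intervals stay within 0.3 of 0.

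Facts of the arrays that bear on these values are as follows. Ppif stood at 6.00, 6.25 and 6.44 in the Ppif-/- hearts and at 11.44, 11.28 and 11.49 in the WT hearts (limma adjusted p = 2.97e-06), so each array went with its label. The 10 cardiomyocyte markers were bright, with means over all hearts between 11.73 and 14.21. Their mean log2 level ran from 13.31 to 13.33 in Ppif-/- hearts and from 13.25 to 13.25 in WT hearts, without overlap, while 0 of the 10 passed. Without Nppa, a natriuretic peptide gene that was 0.68 higher (limma adjusted p = 0.0681), the mean of the other 9 ran from 13.46 to 13.46 and from 13.43 to 13.47, with overlap. Ryr2, the calcium release channel, was lower in each Ppif-/- heart (-0.19, limma adjusted p = 0.248). Myl2 and Myl3 were higher in each (0.07 for both, limma adjusted p = 0.702 and 0.713), and 7 of the 10 markers lay above 0. Among other cell types, 1 of 8 macrophage markers passed (Cd68, higher by 0.56), with mean list levels of 8.23 to 8.41 in Ppif-/- and 8.12 to 8.15 in WT hearts. Likewise 1 of 8 smooth muscle and pericyte markers passed (Tagln, -0.51), with levels of 9.56 to 9.62 and 9.73 to 9.87. In that list 7 markers lay below 0, with Pdgfrb and Kcnj8 at -0.01. Rgs5 went the other way and was higher in each Ppif-/- heart (0.27, limma adjusted p = 0.129). Also 1 of 8 fibroblast markers (Pdgfra, -0.44) and 1 of 9 skeletal muscle markers (Myl1, -1.44) passed, with levels of 9.43 to 9.64 and 9.26 to 9.56 for the former and 7.18 to 7.22 and 7.34 to 7.39 for the latter. Myl1 was the 1 skeletal muscle marker at an unadjusted p under 0.05 in limma. The median difference of that list was -0.02, with 3 markers above 0 and 6 below. Of the measured markers of endothelium (8), lymphocytes (7), adipocytes (7) and red cells (3), 0 passed in limma, and an unadjusted p under 0.05 was found for 1, 3, 0 and 1. Of all probe sets tested, 1.09% passed and 12.9% had an unadjusted p under 0.05. The 3 lymphocyte markers, Cd79a, Ms4a1 and Cd8a, were lower in Ppif-/- hearts. Their probe sets were dim, with means of 4.61, 4.46 and 5.39, below the array medians of 6.03 to 6.11. The part of cell composition in the values below was not tested, and in whole tissue fewer cells of a type cannot be told apart from less RNA per cell. WT heart 2 had the lowest of the array weights that limma estimates (0.51, against 0.73 to 1.65 for the other hearts).

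The alternative activators held the member with the largest difference. Psme4 encodes a large, mainly nuclear activator that opens the core without ATP or ubiquitin and is known from DNA repair and from the degradation of acetylated histones. Its values were 11.54, 11.44 and 11.52 in Ppif-/- hearts and 11.81, 12.03 and 11.78 in WT hearts. Each Ppif-/- heart lay below each WT heart, as for 10.6% of all probe sets tested, and WT heart 2 stood above the other WT hearts. The difference was -0.37 ± 0.09 (SE), a 1.29-fold lower value, with an interval from -0.57 to -0.17, and it did not pass over all probe sets (limma adjusted p = 0.111). Without WT heart 2 it was -0.29 (adjusted p = 0.178), and without any other single heart it ran from -0.35 to -0.42. The adjusted p lay between 0.0297 and 0.24 in the alternative fits on all 6 hearts, under 0.05 in the variance trend fit alone, and between 0.165 and 0.283 with 1 heart left out.

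Of the 4 other genes in this group, the activators Psme1, Psme2 and Psme3 lay above 0 and the inhibitor Psmf1 below it, and none passed in limma, with 0 of these 4 at an unadjusted p under 0.05. Psme1 and Psme2 encode the alpha and beta subunits of an interferon-inducible ring that caps the core and shapes peptides for antigen presentation. Psme1 was 10.85, 10.97 and 10.94 in Ppif-/- and 10.89, 10.72 and 10.81 in WT hearts (0.12 ± 0.07, limma adjusted p = 0.56). Psme2 was 8.84, 8.88 and 8.77 against 8.85, 8.68 and 8.66 (0.10 ± 0.08, limma adjusted p = 0.654). In both, WT heart 1 reached into the range of the Ppif-/- hearts. A probe set that carries the symbols of Psme2 and of its copy Psme2b, and so is no member, differed by -0.06 ± 0.07. Psme3, the nuclear homologue of that ring, differed by 0.0034, with an interval from -0.15 to 0.16, and the inhibitor Psmf1 by -0.08 (-0.26 to 0.10).

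Because Psme4 stood apart from the others, the 250 bases before its annotated start are shown, from RefSeq (GRCm38.p6, chr11:30771525-30771774, plus strand). The capitals mark the single GC box (GGGCGG or its reverse complement) in this stretch, which is 63.6% G or C.
Psme4: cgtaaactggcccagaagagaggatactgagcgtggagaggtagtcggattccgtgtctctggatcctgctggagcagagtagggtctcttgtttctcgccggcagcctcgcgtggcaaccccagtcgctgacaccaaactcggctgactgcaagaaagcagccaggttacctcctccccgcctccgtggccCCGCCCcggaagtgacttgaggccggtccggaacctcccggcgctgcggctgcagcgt
No TATAAA or CCAAT was found in the window of 250 bases before to 50 after this start.

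Core particle subunits lay on both sides of 0. Over the 14 subunits the median difference was -0.0046, with 7 above and 7 below 0, and 13 of 14 intervals lay within 0.3 of 0. The 3 catalytic subunits come first. Psmb5, which carries the chymotrypsin-like site that bortezomib blocks, was 9.10, 9.28 and 9.27 in Ppif-/- and 9.06, 9.26 and 9.10 in WT hearts. Psmb6, with the caspase-like site, was 10.61, 10.50 and 10.50 against 10.56, 10.55 and 10.49. Psmb7, with the trypsin-like site, was 11.10, 11.06 and 11.07 against 11.05, 11.08 and 11.13. The hearts of the 2 genotypes overlapped in all 3, and the differences were 0.07 (-0.12 to 0.27), 0.0037 (-0.15 to 0.16) and -0.012 (-0.16 to 0.13).

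The non-catalytic beta subunits, which complete the beta rings, held the only member whose Ppif-/- hearts all lay above the WT hearts. Psmb1 was 9.38, 9.38 and 9.35 in Ppif-/- and 9.31, 9.32 and 9.22 in WT hearts (0.09 ± 0.06, limma adjusted p = 0.637). Such a separation upwards was found for 9.21% of all probe sets tested. Psmb4 was 9.66, 9.73 and 9.69 against 9.73, 9.81 and 9.82 (-0.09 ± 0.07, limma adjusted p = 0.608), with the highest Ppif-/- heart just inside the WT range. Psmb2 differed by -0.04 (-0.20 to 0.12) and Psmb3 by 0.0061 (-0.15 to 0.16).

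The alpha ring gates the entry to the chamber. Its 7 subunits had a median difference of -0.04, with 3 above and 4 below 0. Psma2 had the smallest p, with 9.51, 9.50 and 9.29 in Ppif-/- and 9.62, 9.56 and 9.50 in WT hearts (-0.13 ± 0.08, limma adjusted p = 0.57), and Ppif-/- heart 3 was the low one. Psma4 was 10.20, 10.21 and 10.21 against 10.24, 10.32 and 10.24, without overlap, at a difference of -0.06 ± 0.06 (limma adjusted p = 0.752). Psma3 differed by 0.07, and Psma1, Psma5, Psma6 and Psma7 lay between -0.08 and 0.01.

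Counting all roles, 4 of 47 members had groups that did not overlap, against 19.8% of all probe sets tested. They were Psme4, Psma4 and Psmg3 on the lower side and Psmb1 on the higher. With 3 hearts on each side, the smallest 2-sided p of an exact permutation test is 0.1.

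**Figure D2:**
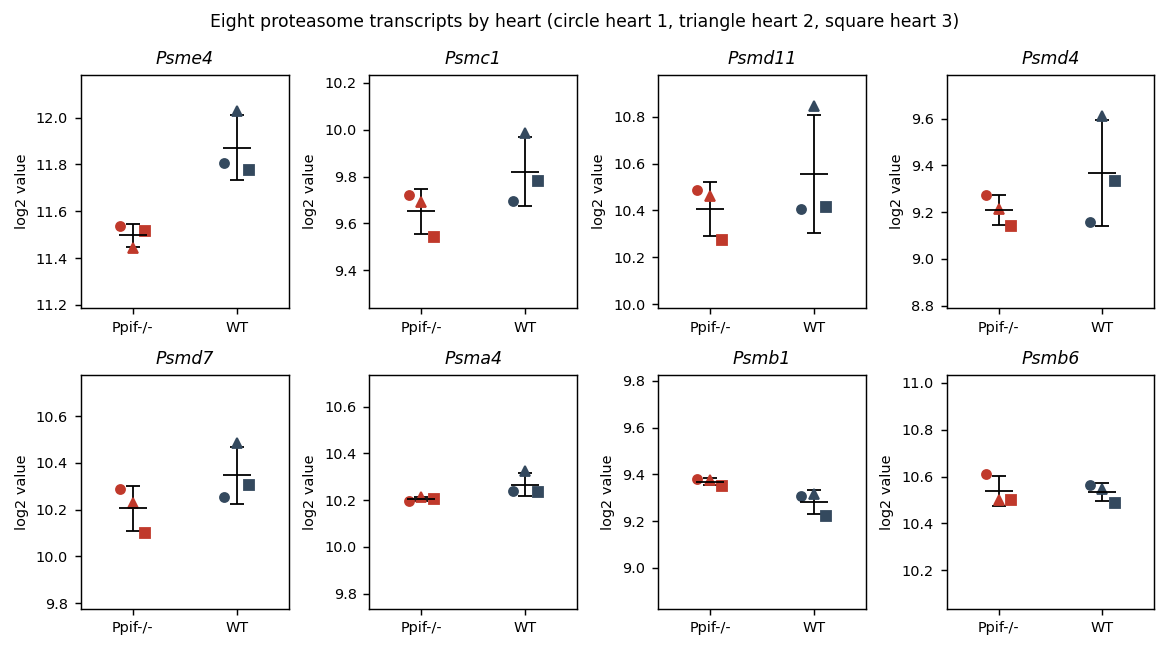
Log2 values (y axis, each panel spanning 1 unit) of Psme4, Psmc1, Psmd11, Psmd4, Psmd7, Psma4, Psmb1 and Psmb6 in the 3 Ppif-/- and 3 WT hearts (x axis), with mean and SD (bars). Psme4, Psma4 and Psmb1 show no overlap between genotypes, and WT heart 2 (triangle) is the highest heart for Psme4, Psmc1, Psmd11, Psmd4, Psmd7 and Psma4.

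Subunits of the regulatory particle leaned below 0, with values that rested on 1 WT heart. Of the 17 subunits that the rule takes, 13 lay below 0 and 4 above, with a median of -0.08. In limma 0 of the 17 passed, with 0 at an unadjusted p under 0.05. The lid subunit Sem1, whose symbol is outside the rule, was higher in each Ppif-/- heart (0.27, limma unadjusted p = 0.0136, adjusted p = 0.228). WT heart 2 was the highest of the 6 hearts for 12 of the 17 (70.6%), against 23.1% of all probe sets tested and 27.5% of those with a mean of 9 or more. Ppif-/- heart 3 was the lowest for 10 of the 17 (58.8%), against 19.1% and 30.9%. Without WT heart 2 the median of the regulatory particle was -0.0025, with 10 of 17 below 0, and without any other single heart it lay between -0.05 and -0.11. In the core particle WT heart 2 was the highest for 5 of 14 subunits (35.7%). The lowest array weight of WT heart 2 goes with this pattern, and its part in it was not tested.

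**Figure D3:**
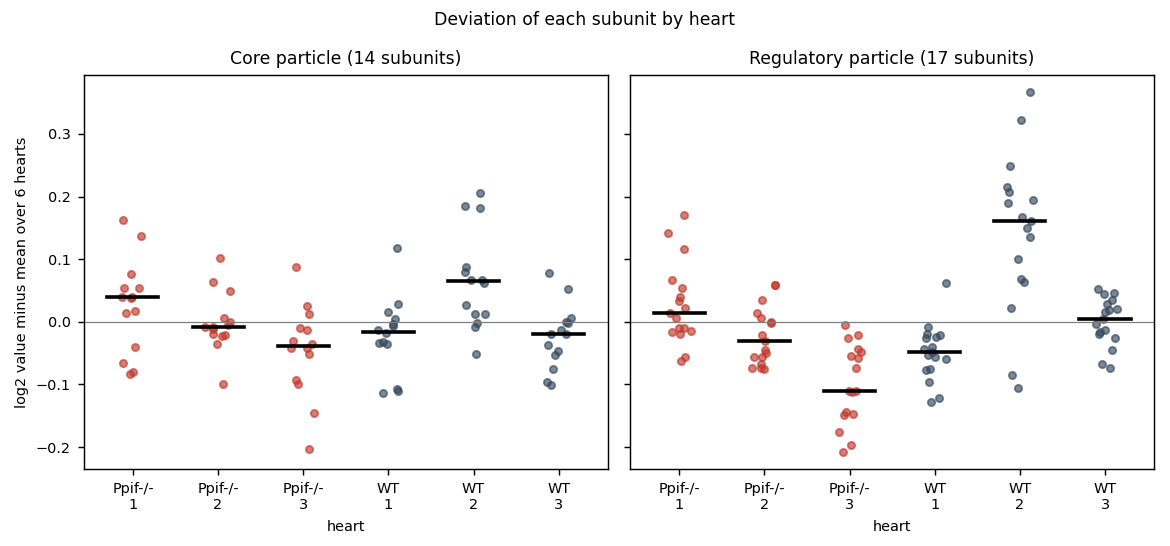
Log2 value of each subunit minus its own mean over the 6 hearts (y axis) in each heart (x axis), for the 14 core and 17 regulatory particle subunits; lines are medians. The median of the regulatory particle is 0.16 in WT heart 2 and -0.11 in Ppif-/- heart 3, and that of the core is 0.06 and -0.04.

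Within the regulatory particle, the ATPase ring unfolds the substrate. Psmc1 had the smallest p of the 6 ATPases, with 9.72, 9.69 and 9.54 in Ppif-/- and 9.70, 9.98 and 9.78 in WT hearts (-0.17 ± 0.09, limma adjusted p = 0.503). WT heart 2 was the high one and WT heart 1 overlapped the Ppif-/- hearts. Psmc2 differed by -0.09 (-0.24 to 0.07) and Psmc4 by -0.08 (-0.24 to 0.09). Psmc6 was the 1 ATPase above 0, at 0.07 (-0.11 to 0.24).

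In the base, Psmd1 and Psmd2 are the large scaffold proteins and Psmd4 is a ubiquitin receptor. Psmd4 was 9.27, 9.21 and 9.14 in Ppif-/- and 9.16, 9.61 and 9.33 in WT hearts (-0.16 ± 0.11, limma adjusted p = 0.621), so that WT heart 1 lay among the Ppif-/- hearts and WT heart 2 well above them. Psmd1 differed by 0.05 (-0.14 to 0.23) and Psmd2 by -0.06 (-0.25 to 0.13).

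The lid holds Psmd14, the protease that removes ubiquitin chains before degradation. Psmd7, its catalytically inactive partner, was 10.29, 10.23 and 10.10 in Ppif-/- and 10.25, 10.48 and 10.30 in WT hearts (-0.14 ± 0.09, limma adjusted p = 0.553). Psmd11, a scaffold of the lid, was 10.49, 10.46 and 10.27 against 10.41, 10.85 and 10.41, with an SD of 0.25 among WT hearts, the widest of any member, and a difference of -0.15 ± 0.13. In both, WT heart 2 stood above all other hearts. Psmd6 differed by -0.09 (-0.30 to 0.12), and the deubiquitinase Psmd14 stood at 0.04 (-0.18 to 0.25).

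Assembly chaperones differed in sign among themselves, and 0 of 7 passed in limma, with 0 at an unadjusted p under 0.05. Psmd5, Psmd9 and Psmd10 guide formation of the ATPase ring, and Psmd10 is also known as gankyrin. Psmd10 was 8.34, 8.11 and 7.98 in Ppif-/- and 8.25, 8.13 and 8.34 in WT hearts (-0.10 ± 0.11, limma adjusted p = 0.775), with wide overlap. Psmd5 differed by 0.0063 (-0.14 to 0.15) and Psmd9 by 0.03 (-0.19 to 0.25).

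Psmg1 to Psmg4 encode the chaperones on which the alpha ring is built. Psmg3 was 5.83, 5.72 and 5.96 in Ppif-/- and 6.01, 6.02 and 5.97 in WT hearts, without overlap (-0.17 ± 0.08, limma adjusted p = 0.428). Its partner Psmg4 was 6.50, 6.50 and 6.39 against 6.24, 6.51 and 6.65 (-0.0037, interval -0.26 to 0.25). Both probe sets were dim. Of the other pair, Psmg1 differed by -0.05 (-0.21 to 0.11) and Psmg2 by 0.11 (-0.06 to 0.29).

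The rule also took 4 genes outside the general proteasome. Psma8, a testis alpha subunit, was at 5.14 to 5.44 over all hearts and Psmb11, the catalytic subunit of thymic epithelium, at 4.98 to 5.36, below the array medians of 6.03 to 6.11. They differed by -0.0067 (-0.23 to 0.22) and 0.16 (-0.09 to 0.41). Psmc3ip, a protein of meiotic recombination named after the ATPase it binds, differed by 0.08 ± 0.07. Psme3ip1, which encodes an interactor of Psme3, was 7.99, 8.13 and 8.08 in Ppif-/- and 8.33, 8.11 and 8.15 in WT hearts (-0.13 ± 0.08, limma adjusted p = 0.572), with WT heart 2 inside the Ppif-/- range. Counting only the 31 core and regulatory particle subunits left 0 at an unadjusted p under 0.05 and 2 without overlap, and a median of -0.04. The shares of all probe sets tested were 12.9% and 19.8%.

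For 5 genes there was more than 1 probe set with the symbol. The probe sets of Psma3 (3), Psmb3 (2), Psmc1 (2) and Psmd2 (2) each pointed one way. For Psma5 the brighter probe set, used here, differed by 0.01 (-0.23 to 0.26). The dimmer one was lower in each Ppif-/- heart, at 8.67 ± 0.06 against 8.85 ± 0.15 (mean ± SD, n = 3 each), a difference of -0.18 ± 0.09 (limma adjusted p = 0.44). Which transcripts or processed copies of these genes each probe set reads was not resolved.

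Genes that work with the proteasome were read from lists chosen with earlier results of these data known. Of 14 measured associated proteins, ubiquitin shuttles and deubiquitinases, 0 passed in limma and the median was -0.09. Without adjustment 3 had a p under 0.05, 1 of them higher and 2 lower in Ppif-/- hearts. Of all probe sets tested, 12.9% did (6.1% higher and 6.81% lower). Usp14, a deubiquitinase that docks on the regulatory particle, was 9.35, 9.22 and 9.14 in Ppif-/- and 9.43, 9.53 and 9.50 in WT hearts (-0.25 ± 0.08, limma adjusted p = 0.216). The hearts did not overlap, as for 10.6% of all probe sets tested on the lower side. Sem1, the smallest subunit of the lid, was 10.26, 10.20 and 9.99 against 9.93, 9.84 and 9.87 (0.27 ± 0.09, limma adjusted p = 0.228), also without overlap and in the other direction. On the higher side, 9.21% of all probe sets tested were separated in this way.

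The one call in these lists was Nfe2l2, the regulator of antioxidant genes, among 9 measured genes that control proteasome transcription. It rose from 8.98, 9.05 and 8.94 in WT to 9.42, 9.55 and 9.63 in Ppif-/- hearts (0.54 ± 0.08, 1.46-fold, limma adjusted p = 0.0216), without overlap. The call ended with the replicate number as a block (0.0691), with all probe sets tested (0.0754) and without Ppif-/- heart 2, Ppif-/- heart 3, WT heart 1, WT heart 2 or WT heart 3 (0.0517 to 0.0959). Nfe2l1 itself, chosen after its value was seen, was 11.32, 11.27 and 11.24 in Ppif-/- and 11.23, 11.30 and 11.36 in WT hearts, a difference of -0.02 (-0.17 to 0.14). Foxo4, a transcription factor of the insulin pathway, differed by -0.28 ± 0.07 (limma adjusted p = 0.146), and the list's median was -0.05.

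Further out in the pathway, 0 genes passed in 3 lists. Of all probe sets tested, 1.09% passed, and 12.9% had an unadjusted p under 0.05 in limma, 6.81% on the lower side. Of 12 genes of the p97 segregase, which extracts ubiquitinated proteins from membranes and complexes, 0 passed in limma, also 0 without adjustment, with a median of -0.05, Faf1 at -0.16 and Faf2 at -0.15. Of 10 measured genes of ubiquitin supply, 0 passed in limma and 1 was lower at an unadjusted p under 0.05, the hydrolase Uchl3 (-0.23 ± 0.08), with Uba6, a ubiquitin-activating enzyme, at -0.16 and a median of -0.02. Of 16 ubiquitin ligases of striated muscle, 0 passed in limma and the median was -0.07, and without adjustment 3 were lower with a p under 0.05. Among these, Fbxo40 was 10.85, 10.81 and 10.72 in Ppif-/- and 10.97, 11.01 and 11.06 in WT hearts (-0.22 ± 0.07, limma adjusted p = 0.229). The atrophy ligase Trim63, which tags sarcomeric proteins, was 10.09, 10.22 and 10.14 against 10.40, 10.27 and 10.48 (-0.23 ± 0.08, limma adjusted p = 0.268). Neither overlapped between genotypes, as for 10.6% of all probe sets tested on the lower side. Trim55, also lower without adjustment, had the largest difference in the list (-0.28, limma adjusted p = 0.322), and its hearts overlapped. Fbxo32, the other well-known atrophy ligase, chosen after its value was seen, stood at 0.06 (-0.10 to 0.22).

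The immunoproteasome subunits left out of the members each lay above 0, with an interval that included 0. Of the 47 members, 19 lay above 0 as well. Of 8 genes of the immunoproteasome and peptide transport, 7 were above 0 and the median was 0.13. In limma 0 passed, and 1 was higher at an unadjusted p under 0.05, against 6.1% of all probe sets tested. This was B2m, the light chain of MHC class I, at 11.72, 11.49 and 11.43 in Ppif-/- and 10.95, 11.19 and 11.04 in WT hearts (0.49 ± 0.10, limma adjusted p = 0.0814), with Tapbp next (0.13). B2m did pass on the brighter probe sets (0.0488), in the fit with a variance trend (0.0275) and in the one that used array weights (0.0358). Its adjusted p ran from 0.0275 to 0.23 over all alternatives. The catalytic immunosubunits Psmb8, Psmb9 and Psmb10 differed by 0.13 (-0.13 to 0.39), 0.14 (-0.07 to 0.35) and 0.11 (-0.14 to 0.37). Of the 8 macrophage markers 6 lay above 0, with Cd68 the 1 that passed, while Csf1r was lower in each Ppif-/- heart (-0.10, limma adjusted p = 0.55) and Lyz2 stood at -0.03. Their part in the immunoproteasome values was not tested.

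**Figure D4:**
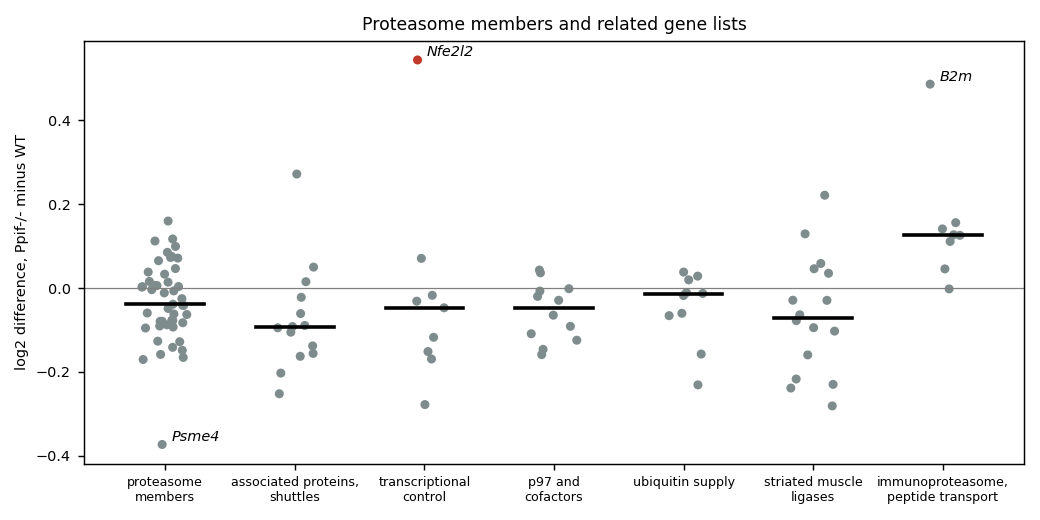
Log2 difference between Ppif-/- and WT hearts (y axis) for the 47 members and for each gene of 6 related lists (x axis); lines are medians, and red marks an adjusted p under 0.05. Nfe2l2 (0.54) is the 1 red point, Psme4 (-0.37) is the lowest member, and the immunoproteasome list has a median of 0.13.

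Promoters were searched for 2 motifs tied to this pathway in the literature, and also for the GC, CCAAT, E and TATA boxes, which are given last. RefSeq promoters (GRCm38.p6, 250 bases before to 50 after the start) were at hand for 39 of the 47 genes, 43 promoters in all. The core of the antioxidant response element, TGACNNNGC on either strand, to which NFE2L1 and NFE2L2 bind, was found in 6 of 43 member promoters (14%) and in 12.4% of all 32851 promoters. Its members were Psmb5, Psmb6, Psmc6, Psmd9, Psmd12 and Psme4, with differences from -0.37 to 0.07, 2 below and 4 above 0. The sites of the member that stood apart and of 2 catalytic subunits are shown, with the match in capitals.
Psme4, chr11:30771758-30771786, plus strand: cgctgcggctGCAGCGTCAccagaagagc
Psmb5, chr14:54618024-54618052, minus strand: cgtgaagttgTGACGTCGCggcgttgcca
Psmb6, chr11:70525338-70525366, plus strand: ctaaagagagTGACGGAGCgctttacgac
The match begins 7 bases before the start in Psme4, where it is on the reverse strand and runs past the start, 47 before in Psmb5 and 9 before in Psmb6.

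The palindrome of nuclear respiratory factor 1, searched on both strands, was found in 7 of 43 member promoters (16.3%) and in 4.6% of all promoters. Nuclear respiratory factor 1 drives many nuclear genes of mitochondrial proteins and is a different protein from NFE2L1. The genes were Psma2, Psma3, Psma4, Psmc4, Psmc5, Psmd14 and Psmg1, with differences from -0.13 to 0.07, 5 below and 2 above 0. The 3 alpha subunit sites and 1 ATPase site show how the centre of the match varies. Of these, only the Psma2 site is a palindrome, reading the same on both strands.
Psma2, chr13:14613105-14613134, plus strand: ggcccctcttGCGCATGCGCaagggtcaaa
Psma3, chr12:70974535-70974564, plus strand: tatggtttctGCGCACGCGCgctctctgct
Psma4, chr9:54950788-54950817, plus strand: tcgcagtcctGCGCACGCGCgggagccata
Psmc5, chr11:106256126-106256155, plus strand: tttcgcctccGCGCCTGCGCgatagagtga
GC boxes (GGGCGG) were in 55.8% of member promoters and 35.7% of all, CCAAT in 34.9% and 37.4%, the E box CACGTG in 9.3% and 7.15%, and TATAAA in 6.98% and 13.6%, each on both strands, and matches of different motifs may overlap. A match describes the sequence and shows no binding, and no match says only that the letters are not in this window.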

How the data were processed

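The authors deposited log2 values for each probe set, made with RMA per the submitters' processing notes. Its software, version and filters are not stated there, and no batch or scan date was at hand. They were used as deposited. Of 35557 probe sets, 21789 carried 1 gene symbol in the platform annotation, 1621 several and 12147 none. All 47 member symbols matched a RefSeq gene table (GRCm38.p6) by Entrez identifier. The genotypes were tested in R 4.3.3 with limma 3.58.1 (lmFit, eBayes, 2-sided) on the 23410 probe sets with at least 1 symbol, with Benjamini-Hochberg adjustment at 0.05. Intervals are 95%, from the moderated fit. The p-values measure the spread between 3 numbered hearts per genotype, and the number of arrays limits precision. The procedure was tested on simulated data. It recovered 4% of simulated log2 changes of 0.25, 64% of those of 0.5 and 98% of those of 1, so small changes were mostly missed.

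The members and lists were chosen with earlier results of these data known. Named in full were Ppif, members past the threshold, the 3 members with the smallest p in each role group (all where a group has 4 or fewer), and in each related list the called genes or the 2 with the smallest p. Other members and marker genes are named to complete a role group or list, with their values seen. Related lists without a probe set of 1 symbol for a gene leave that gene not analysed here. Alternatives were the replicate block, other sets of probe sets, a filter at a mean of 6, quantile normalisation, centring, trend, robust fit, array weights, gene means and leaving out each heart.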

Additional observations from a re-analysis of the deposited data

How the results depend on the processing

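In every alternative but the variance trend, which called 1 (Psme4), 0 members passed in limma. The median difference of the members ran from -0.06 to -0.0009, the latter without WT heart 2, and was -0.0048 with array weights and -0.0071 without Ppif-/- heart 3. Members at an unadjusted p under 0.05 numbered 2 with quantile normalisation, centred arrays or array weights, 0 among core and regulatory particle subunits, and 1 to 2 without 1 heart. Without 1 heart, 6 to 15 members did not overlap: 15 (31.9%) without Ppif-/- heart 1, 9 (19.1%) without Ppif-/- heart 2, 7 (14.9%) without Ppif-/- heart 3, 14 (29.8%) when WT heart 1 was left out, and 6 (12.8%) for each of the other WT hearts. The shares of all probe sets tested were, in the same order, 31.4%, 28.7%, 29.6%, 29.1%, 29.7% and 29.1%. Among the 31 core and regulatory particle subunits with all hearts there were 2, against 19.8% of all probe sets tested. The bound of 0.2 held 8 intervals. Calls in the related lists numbered 0 with the replicate number as a block or all probe sets tested, 2 on brighter probe sets, with a trend or with array weights, and 0 to 1 without 1 heart.

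Some members changed sign, and none of these was called in any fit. With centred arrays 7 of 47 did, Psma1 (-0.017), Psma5 (-0.0047), Psmb3 (-0.013), Psmb6 (-0.015), Psmd5 (-0.013), Psmd8 (-0.0030) and Psme3 (-0.016), under a shift common to all probe sets. With array weights 6 did, Psma7 (0.016), Psma8 (0.0036), Psmb6 (-0.0048), Psmd3 (0.0073), Psmd13 (0.0023) and Psmg4 (0.034), and with gene means Psma5 (-0.085). Without 1 heart 19 did. Their ranges were Psma1 -0.017 to 0.024, Psma5 -0.064 to 0.11, Psma7 -0.10 to 0.051, Psma8 -0.064 to 0.087, Psmb2 -0.075 to 0.0016, Psmb3 -0.024 to 0.041, Psmb6 -0.034 to 0.022, Psmb7 -0.031 to 0.011, Psmc3 -0.065 to 5e-05, Psmd1 -0.0026 to 0.093, Psmd2 -0.11 to 0.0008, Psmd3 -0.099 to 0.029, Psmd5 -0.0068 to 0.023, Psmd8 -0.033 to 0.051, Psmd9 -0.061 to 0.088, Psmd13 -0.11 to 0.0047, Psmd14 -0.038 to 0.12, Psme3 -0.033 to 0.045 and Psmg4 -0.12 to 0.089. The cause was not tested.

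The replicate numbers are shared by both genotypes but same-numbered hearts did not deviate together (correlations of -0.08, -0.06 and 0.12), and with the number as a block 0 members passed in limma, 1 was under 0.05 without adjustment and 160 of all probe sets passed, against 254 without it.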
